A study of Mus musculus with 81 samples.

Results

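CA1 pyramidal neurons (CA1 PNs) of trisomic Ts65Dn (Ts) mice were compared between offspring of choline-supplemented dams (ChP) and offspring of dams on the control diet (ChN). The comparison took every library of the CA1 count matrix that the labels mark as Ts, 9 ChP and 5 ChN, which is 14 of the 81 libraries of the series. Each library came from a separate mouse, and no mouse belonged to both diets. Ts65Dn mice model Down syndrome: an extra small chromosome triplicates many chromosome 16 genes whose human counterparts lie on chromosome 21, and also some genes near the centromere of chromosome 17 whose counterparts lie elsewhere. The mice came from Ts65Dn females mated with males of a C57Bl/6J Eicher by C3H/HeSnJ F1 background, so they did not share a single inbred genome. The dams received 1.1 g/kg choline chloride in ChN or 5.0 g/kg in ChP through gestation and lactation, and all offspring ate the control diet after weaning, so the mice themselves had no choline supplement for most of their lives. At about 6 months of age (MO) CA1 PNs, CA3 pyramidal neurons (CA3 PNs) and dentate granule cells (DGCs) were cut from stained hippocampal sections by laser capture microdissection, and total RNA from pooled cells of 1 brain was sequenced per library. The question was whether the maternal diet was associated with a lasting difference in CA1 PN expression in the trisomic offspring.

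Choline is an essential nutrient with 3 main fates. It is phosphorylated and built into phosphatidylcholine for membranes, it is acetylated to the transmitter acetylcholine, and it is oxidised to betaine, which donates a methyl group for the remethylation of homocysteine to methionine. Methionine is then converted to S-adenosylmethionine, the methyl donor of DNA and histone methylation, which is why choline supply in early life is studied for effects that outlast the diet. CA1 PNs are the excitatory output neurons of the hippocampus and receive cholinergic input from the basal forebrain.

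The genes that separated the diets with the smallest p-values were few and their differences were modest. Higher in ChP were Fam107a, an actin-binding protein induced by stress hormones, Fbxo7, a substrate adaptor of a ubiquitin ligase, Ppia, the prolyl isomerase cyclophilin A, and Myl12b, a myosin regulatory light chain. Lower in ChP were Slc38a6, an amino acid transporter family member, Klf10, a zinc finger transcription factor, Ube2v2, a partner of the ubiquitin-conjugating enzyme Ube2n, and Mtr, methionine synthase. Cytosolic ribosomal protein genes and several classes of short non-coding RNA had more members higher than lower in ChP. Fewer of them were called with each gene's effective length in each library as an offset. The median LFC of the ribosomal protein genes was then 0.21 beside 0.22. No gene passed a correction for the number of genes tested.

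Across the 14 libraries, 14015 genes exceeded 0.1 CPM (counts scaled to a common library total) in at least 10 libraries and were tested with edgeR's quasi-likelihood test, of which 11877 were protein-coding. A gene with an unadjusted p under 0.05 is called a differentially expressed gene (DEG) here, and LFC is the log2 of the ChP level over the ChN level. There were 457 DEGs (3.26% of genes tested), of which 279 were higher (1.99%) and 178 lower (1.27%) in ChP, while a threshold of 0.05 gives 701 when no gene differs. After Benjamini-Hochberg adjustment of edgeR's quasi-likelihood p-values, 0 genes (0.0%) passed 0.05 and the smallest adjusted p was 0.9999. DESeq2 and limma-voom also left 0 genes after adjustment, with 355 and 548 genes at an unadjusted p under 0.05. All LFC values given below therefore describe these libraries, and the unadjusted p-values set each difference against the spread between libraries. Of the DEGs, 352 were protein-coding and 313 had an absolute LFC under 1. The split between directions depended on the scaling: with library totals in place of TMM factors (edgeR's trimmed-mean scaling) there were 175 higher (1.25%) and 285 lower (2.03%), so that the share of DEGs that were higher went from 61.05% to 38.04%. Without the ChN library of mouse 16-357 there were 784 DEGs (457 higher, 327 lower).

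Library sizes of the diets overlapped. Totals of expected counts ran from 645483 to 1918846 in ChP, with a median of 1274304, and from 943299 to 1657389 in ChN, with a median of 1156470 (p = 0.689 in a two-sided exact permutation test over the 14 mice). The share of counts in protein-coding genes was 83.8% ± 1.65 (SD) in ChP and 85.7% ± 0.82 in ChN (exact permutation p = 0.038, and 0.16 after adjustment over 6 library measures). Mean fragment length was 186 ± 20.1 bases in ChP and 209 ± 33.2 bases in ChN (exact permutation p = 0.117), with the longest fragments, 266.8 bases, in the ChN library of mouse 16-357. The first part of the mouse number, whose meaning the labels do not state, was 16 or 17 in all ChN mice and ran from 14 to 17 in ChP mice, so it cannot be fully told apart from diet.

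The labels were checked against markers before the genes were compared. Markers of excitatory neurons were at a mean of 8.08 to 8.48 log2 CPM in all 14 libraries. Markers of CA1 PNs were between 5.82 and 7.32 log2 CPM in 13 libraries and at 2.56 in the library labelled CA1 PNs of mouse 16-272, where Pou3f1 was at 0.58 CPM and Wfs1 at 9.29 CPM. Another marker of that list, Spink8, was at 29.6 CPM or more in every ChP library, this one included, beside 24.7 to 71.3 CPM in ChN. The ChP library of mouse 16-272 had CA2 markers at 7.73 log2 CPM and CA3 markers at 7.04. The ChN library of mouse 16-357 (7.58) and the ChP library of mouse 15-199 (7.62) also had high CA2 marker means, beside CA1 marker means of 6.16 and 5.82. These 3 libraries are called CA2-rich here. The ChP libraries of mice 15-140 and 15-198 had intermediate CA2 marker means of 6.14 and 6.05, with CA3 markers at 4.87 and 4.93, while the other 9 libraries were at 1.63 to 3.61 for CA2. CA2 markers were therefore raised in 4 of 9 ChP libraries and 1 of 5 ChN libraries. Their median LFC was 0.68 over all libraries, 2.12 without the 3 CA2-rich libraries, which leaves no ChN library with raised markers, and -0.15 without all 5. Results are therefore also given without all 5 libraries with raised CA2 markers, a fit of 5 ChP and 4 ChN libraries chosen after seeing the data. Without mouse 16-272 there were 409 DEGs (240 higher, 169 lower), and without the 3 CA2-rich libraries there were 579 DEGs (322 higher, 257 lower) among 12560 genes. Without all 5 there were 549 (277 higher, 272 lower) among the 14015 genes.

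**Figure D1:**
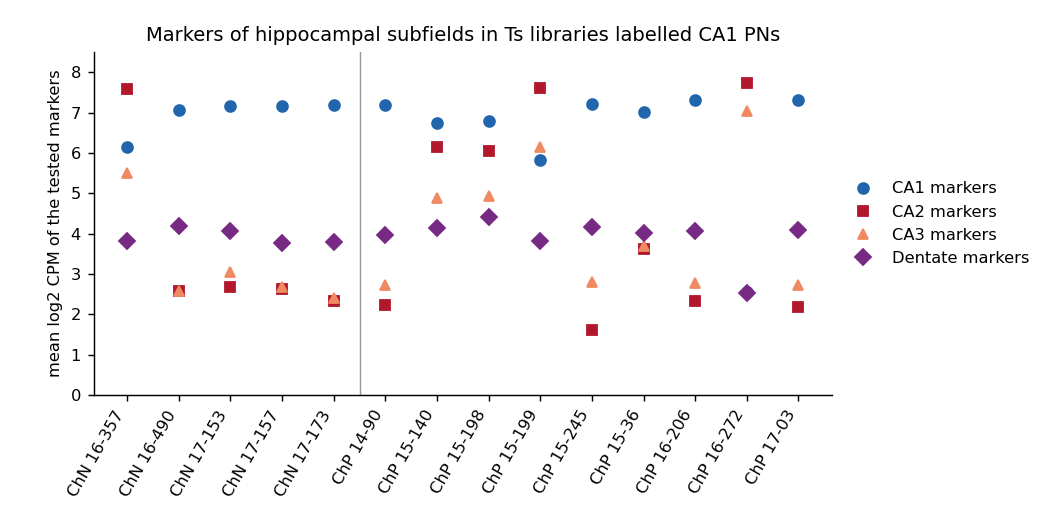
Mean log2 CPM of the tested markers of CA1, CA2, CA3 and dentate granule cells (vertical axis) in each of the 14 Ts libraries labelled CA1 PNs (horizontal axis, ChN left of the line, ChP right). The library of ChP mouse 16-272 sits at 2.56 for CA1 markers and 7.73 for CA2 markers, and ChN 16-357 and ChP 15-199, 15-140 and 15-198 carry both sets.

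Markers of other cell types overlapped between the diets in their summed levels. None of the tested markers of inhibitory neurons, astrocytes, oligodendrocytes, their precursors or microglia was a DEG. That count rested on the ChN library of mouse 16-357: without it 4 of 10 inhibitory neuron markers (median LFC 0.41), 3 of 8 oligodendrocyte markers (0.65), 1 astrocyte marker and 1 precursor marker were higher in ChP. Without all 5 libraries with raised CA2 markers 2 inhibitory markers were higher, 1 precursor marker was lower and 0 astrocyte or oligodendrocyte markers were called. The vascular list had 1 DEG among 7 tested, Ly6c1 (LFC 1.39), with a list median of 0.50 and summed levels of 21.0 to 46.7 CPM in ChN and 29.6 to 61.9 CPM in ChP. The choroid plexus markers Ttr, Folr1, Clic6 and Kcnj13 were at 0 in all 14 libraries. The other listed members were detected. Kl was at 35.3 to 89.0 CPM in ChN and 9.87 to 91.1 CPM in ChP. Prlr was at 2.30 to 14.1 CPM in ChN and 0 to 10.4 CPM in ChP, and neither was a DEG. The part of these cell types in any difference below was not tested, and fewer cells of a type cannot be told apart from less RNA per cell in pooled samples.

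Among the 12 protein-coding DEGs with the smallest p-values in the higher direction, Fam107a (GRCm39 14:14151750-14173507, plus strand) came first. Its level was 36.4, 36.2, 22.9, 24.04 and 24.8 CPM in the ChN libraries of mice 16-357, 16-490, 17-153, 17-157 and 17-173, an order kept in the sentences that follow, and 34.4 at lowest, 45.9 at the median and 65.8 CPM at highest in ChP. In 7 of 9 ChP libraries it lay above every ChN library. The LFC was 0.67 ± 0.18 (SE), with an unadjusted p of 0.000903. Leaving out any single library kept the LFC between 0.58 and 0.77.

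Fbxo7 (10:85857690-85887737, plus strand) was at 9.30, 8.91, 5.09, 10.02 and 5.13 CPM in ChN and at 9.59, 14.8 and 18.3 CPM (lowest, median, highest) in ChP. All but 1 ChP library exceeded the highest ChN library, for an LFC of 0.88 ± 0.25 (unadjusted p = 0.00168). Fbxo7 overlaps Syn3, which lies on the opposite strand and had an LFC of -0.55 (unadjusted p = 0.103).

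Myl12b (17:71280119-71297959, minus strand) was the protein-coding gene of the 12 whose diets did not overlap at all. It was at 95.3, 128, 126, 113 and 127 CPM in ChN, and its ChP levels were 133, 146 and 186 CPM at lowest, median and highest. The LFC of 0.36 ± 0.11 (unadjusted p = 0.00273) was small, and all 9 ChP libraries lay above all 5 ChN libraries. In this way 2 of 14015 genes (0.0143%) lay wholly above ChN, the other being Gm10033. Wholly below ChN were 5 genes (0.0357%), namely Pcyt2, Cdca4, Zfp799, Gm11868 and Gm45084. There are 2002 ways to split 14 libraries into 9 and 5. For a gene that does not differ, full separation in 1 direction has a probability of 0.0005. Both shares seen were below that, so the separation alone does not set these genes apart from chance.

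Ppia (11:6365443-6369817, plus strand) was at 88.3, 121, 87.4, 110 and 110 CPM in ChN, against 107, 137 and 168 CPM at lowest, median and highest in ChP. Here 7 of 9 ChP libraries exceeded every ChN library (LFC 0.43 ± 0.12, unadjusted p = 0.00184). Ppia has many processed pseudogenes, so reads could be shared with near-identical copies.

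A further 7 of the 12 higher genes fell into a few roles. Translation and protein folding were represented by Rpl36 (LFC 0.78 ± 0.25) and Rpl41 (0.49 ± 0.16), both large ribosomal subunit proteins, and by Pfdn1 (0.56 ± 0.19), a subunit of the prefoldin chaperone. Aurkaip1 (0.51 ± 0.15) encodes a protein of the mitochondrial ribosome, and 8 of its 9 ChP libraries lay above all ChN libraries. Zng1 (0.82 ± 0.25) encodes a zinc chaperone, and Tdp2 (0.68 ± 0.21) an enzyme that repairs DNA ends blocked by topoisomerase. Pecr (2.11 ± 0.64), a peroxisomal enoyl-CoA reductase, was close to the limit of detection in ChN, at 0, 0.594, 0.849, 3.01 and 0 CPM, against 1.48, 3.73 and 6.30 CPM (lowest, median, highest) in ChP.

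The lower direction was led by Slc38a6 (12:73333535-73400823, plus strand). It was at 3.10, 6.53, 2.55, 7.01 and 5.13 CPM in ChN and 0.572, 1.56 and 2.99 CPM (lowest, median, highest) in ChP. In 8 of 9 ChP libraries it was below every ChN library, with an LFC of -1.59 ± 0.42 and an unadjusted p of 0.000979. Its level was low, so each library held few reads of it.

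Klf10 (15:38291703-38300959, minus strand), an early response gene of the transforming growth factor pathway, was at 51.1, 67.7, 62.8, 61.1 and 58.1 CPM in ChN. In ChP it was at 31.7, 45.2 and 52.4 CPM at lowest, median and highest. The groups overlapped only through the ChN library of mouse 16-357, the lowest of its group, and 7 of 9 ChP libraries lay below it (LFC -0.47 ± 0.13, unadjusted p = 0.00137). Ube2v2 (16:15306905-15413637, minus strand), which lies on chromosome 16 but is not among the listed triplicated genes, was at 36.4, 29.1, 40.7, 33.1 and 29.9 CPM in ChN and 14.9, 22.4 and 33.5 CPM in ChP, an LFC of -0.59 ± 0.18. Tiparp, a mono-ADP-ribosyltransferase, was at 36.4, 34.5, 36.5, 33.1 and 41.9 CPM in ChN and 17.7, 25.2 and 35.8 CPM in ChP (LFC -0.54 ± 0.17).

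The other lower genes of the 12, beside Mtr, were Cox18 (LFC -0.82 ± 0.25), a mitochondrial insertase needed for cytochrome c oxidase assembly, Casd1 (-0.39 ± 0.13), a sialic acid O-acetyltransferase, Stx5a (-0.41 ± 0.14), a syntaxin of transport between endoplasmic reticulum and Golgi, Arsi (-1.92 ± 0.63), an arylsulfatase, the zinc finger genes Zfp74 (-0.56 ± 0.18) and Zfp329 (-0.46 ± 0.15), and Leng8 (-0.44 ± 0.14). Leng8 was at 134, 188, 196, 166 and 179 CPM in ChN and 80.4, 121 and 162 CPM at lowest, median and highest in ChP. Stx5a was below every ChN library in 8 of 9 ChP libraries.

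**Figure D2:**
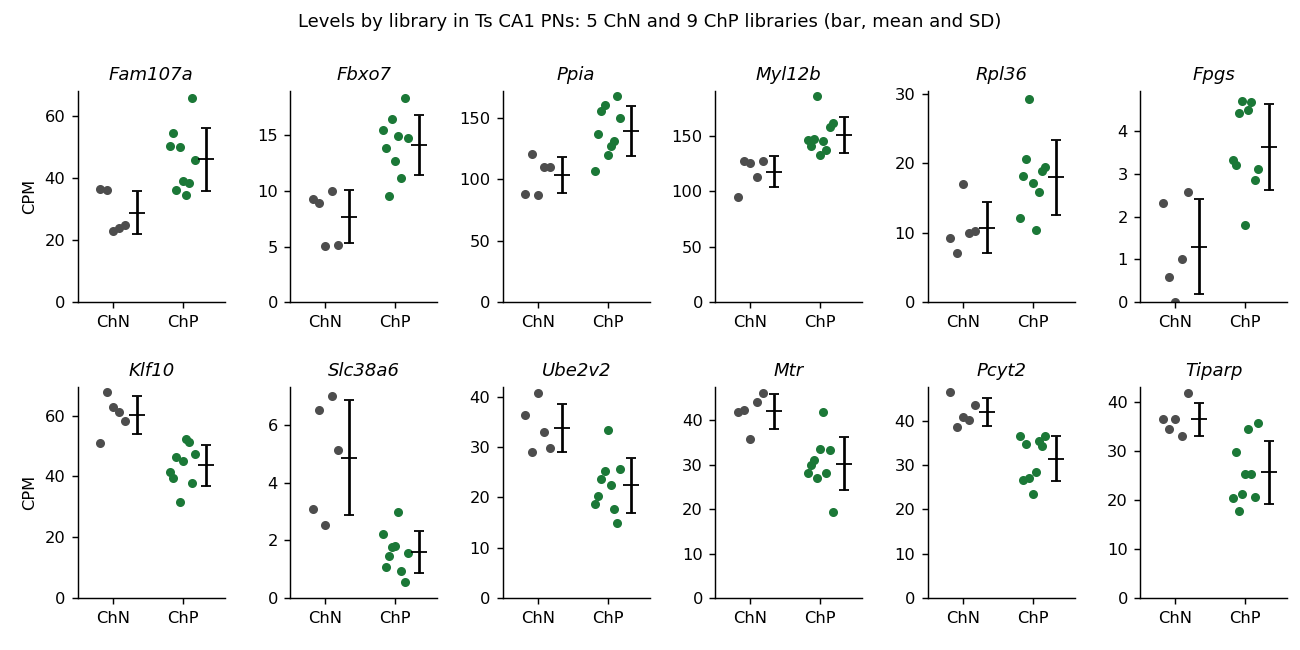
CPM (vertical axis, from 0) of 12 genes in the 5 ChN and 9 ChP Ts CA1 PN libraries, 1 point per library, with the mean and SD as a bar beside each group. Myl12b and Pcyt2 have no overlap between the diets, and the other genes overlap in 1 to 3 libraries of ChP.

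All 24 of these genes kept an unadjusted p under 0.05 in each of the 14 fits that left out 1 library, and in the fit without mouse 16-272. Without the 3 CA2-rich libraries 22 of 24 did, Zfp74 being at an unadjusted p = 0.0649 and Arsi no longer tested. Without all 5 libraries with raised CA2 markers 16 of 24 did and all 24 kept their sign. Those that did not were mostly higher genes, among them Ppia (LFC 0.23, unadjusted p = 0.0586), Zng1 (0.64, unadjusted p = 0.0596), Tdp2 (0.47, unadjusted p = 0.0888), Rpl41 (0.35, unadjusted p = 0.0624) and Rpl36 (0.47, unadjusted p = 0.118), with Zfp74 and Arsi among the lower genes. Fam107a (0.62), Fbxo7 (0.91), Klf10 (-0.42), Slc38a6 (-1.48) and Mtr (-0.53) remained under 0.05. The calls also changed between settings of the fit. With the percentage of protein-coding counts as a covariate 13 of 24 stayed under 0.05. That percentage was itself lower on average in ChP, so its part cannot be told apart from that of diet. With the effective length of each gene in each library as an offset 15 of 24 stayed under 0.05, although all 24 kept their sign. Such an offset is not a measure of fragment length alone, and what moved the calls was not tested. Fam107a had an LFC of 0.68 under this offset (unadjusted p = 0.00489) and Mtr -0.58 (unadjusted p = 0.0195), whereas Klf10 went to -0.20 (unadjusted p = 0.242) and Zfp329 to -0.06 (unadjusted p = 0.816). Both covariates were chosen after seeing the data.

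Among genes of choline uptake and phosphatidylcholine synthesis the share of DEGs was near that of all genes. Of 38 listed genes 28 were tested, 0 were higher and 1 was lower, and the median LFC was -0.06 beside 0.01 over all genes tested, with 20 of 28 below 0. The 1 DEG was Pcyt2 (11:120500518-120508813, minus strand), the rate-limiting enzyme of the ethanolamine branch of phospholipid synthesis that runs parallel to the choline branch. It was at 46.5, 38.6, 40.7, 40.1 and 43.6 CPM in ChN. In ChP it was at 23.5, 34.3 and 36.6 CPM at lowest, median and highest, so that all 9 ChP libraries lay below all 5 ChN libraries (LFC -0.40 ± 0.14, unadjusted p = 0.00804). Pcyt2 kept its sign and an unadjusted p under 0.05 without mouse 16-272 (LFC -0.42), without the CA2-rich libraries (-0.34) and with the effective length offset (-0.45), but among mice numbered 16 or 17 its LFC was -0.25 (unadjusted p = 0.165) and without all 5 libraries with raised CA2 markers -0.32 (unadjusted p = 0.0714).

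The enzymes of the choline branch proper showed no DEG. Chka, choline kinase alpha, had an LFC of -0.10 ± 0.11, and Chkb, choline kinase beta, of 0.07 ± 0.25. Pcyt1a, the enzyme that sets the rate of phosphatidylcholine synthesis, had 0.19 ± 0.23, and its brain-enriched relative Pcyt1b 0.24 ± 0.25. Chpt1 and Cept1, which make the final transfer to diacylglycerol, had -0.02 ± 0.18 and -0.03 ± 0.20. The choline transporters Slc44a1 (-0.16 ± 0.13), Slc44a2 (-0.04 ± 0.21) and Slc44a5 (-0.03 ± 0.14), and Flvcr1 (-0.32 ± 0.23), which also carries choline, lay below 0 by less than 2 SE each. Chdh, choline dehydrogenase, which opens the route to betaine, was low, at means of 2.17 CPM in ChN and 1.6 CPM in ChP. Pemt, which methylates phosphatidylethanolamine to phosphatidylcholine, did not pass the filter, being at 0 in 3 ChN and 4 ChP libraries and at most at 2.12 CPM.

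In the one-carbon cycle 37 of 46 listed genes were tested, 1 was higher and 1 lower, with a median LFC of 0.09. Mtr (13:12197598-12273090, minus strand) transfers the methyl group of folate to homocysteine and so makes methionine by a route parallel to betaine. It was at 41.9, 42.2, 35.6, 44.1 and 46.2 CPM in ChN and at 19.4, 29.9 and 41.9 CPM (lowest, median, highest) in ChP. In 8 of 9 ChP libraries Mtr was below every ChN library (LFC -0.49 ± 0.15, unadjusted p = 0.00347), and the LFC was -0.64 among mice numbered 16 or 17 and -0.51 without the CA2-rich libraries. Fpgs (2:32572621-32594157, minus strand), which adds glutamates to folates and keeps them in the cell, went the other way, from 2.33, 0.594, 0, 1.002 and 2.56 CPM in ChN to 1.81, 3.31 and 4.69 CPM in ChP (LFC 1.43 ± 0.51). Its level was near the limit of detection in ChN, and 8 of 9 ChP libraries lay above every ChN library.

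Neighbours of Mtr in the cycle were not DEGs. Mtrr, which reactivates methionine synthase, had an LFC of -0.29 ± 0.25. Mat2a, which makes S-adenosylmethionine, had -0.08 ± 0.14. Ahcyl1, related to the hydrolase of S-adenosylhomocysteine, had -0.02 ± 0.09, the smallest error among the 37 genes. Among genes that use or remove methyl groups, the DNA methylation list had 1 higher and 0 lower of 24 tested (median LFC 0.00), the one being Gadd45a (LFC 1.37), a stress-induced gene linked to demethylation. Gadd45a kept its call in 3 of 14 fits that left out 1 library. The histone methylation list had 0 higher and 1 lower of 51 (median -0.02), the one being Suz12 (-0.39), a core subunit of Polycomb repressive complex 2. Suz12 kept its call in 7 of the 14 fits that left out 1 library, with LFC values of -0.50 to -0.24, and had an LFC of -0.06 (unadjusted p = 0.821) with the effective length offset.

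Receptors for acetylcholine and the cholinesterases numbered 19 tested genes, with 1 higher and 0 lower and a median LFC of -0.03. The one was Chrnb2 (LFC 0.33 ± 0.15), the beta2 subunit of nicotinic receptors, at 61.2, 56.4, 39.9, 28.1 and 55.6 CPM in ChN and 49.4, 61.6 and 71.0 CPM in ChP, with overlapping groups. Chrnb2 kept its call in 6 of 14 fits that left out 1 library. Chrm1, the main muscarinic receptor of these neurons, had an LFC of -0.04. Among neurotrophins and their receptors 1 of 19 was higher and 0 lower (median 0.03). It was Bex3, which binds the p75 neurotrophin receptor, at 96.9, 83.7, 83.2, 99.2 and 119 CPM in ChN and 94.0, 122 and 174 CPM in ChP (LFC 0.39 ± 0.14), while Bdnf had an LFC of 0.16 and Ntrk2 of 0.12.

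Synaptic genes included few DEGs. AMPA and kainate receptors with their auxiliary proteins had 0 DEGs of 29 tested (median LFC 0.00), NMDA receptors and postsynaptic scaffold proteins 0 of 28 (-0.03), metabotropic glutamate receptors 0 of 5 (-0.04) and presynaptic release proteins 0 of 57 (0.10). GABA receptors had 1 higher and 0 lower of 22 (median -0.08), the one being Kctd8, an auxiliary subunit of the GABA-B receptor (LFC 1.83). Kctd8 was near the limit of detection, at means of 0.66 CPM in ChN and 2.39 CPM in ChP. Without all 5 libraries with raised CA2 markers its LFC was 0.70 (unadjusted p = 0.446). Potassium channels had 0 DEGs of 62 (median -0.04), and calcium and sodium channels 0 higher and 1 lower of 34 (median -0.04), which was Scn4b, a sodium channel beta subunit (-0.50). Clustered protocadherins had 1 higher, Pcdha4 (LFC 1.02), of 57.

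Of 36 tested immediate early genes 26 had an LFC below 0, with a median of -0.16 against 0.01 over all genes tested, 0 were higher and 2 were lower. The median was -0.23 to -0.06 leaving out 1 library and -0.03 among mice numbered 16 or 17, and it turned to 0.07 with the first part of the mouse number as covariate, so no direction is given for the group. The 2 lower genes were Klf10 and Klf6, both Kruppel-like transcription factors. Klf6 was at 37.2, 39.8, 35.6, 33.1 and 20.5 CPM in ChN and 20.2, 27.1 and 31.4 CPM in ChP (LFC -0.34 ± 0.17). Neither was a DEG with the effective length offset, under which the list median was -0.19. The best known members had wide errors, with LFC values of -0.10 ± 0.38 for Fos, -0.41 ± 0.38 for Arc, -0.06 ± 0.40 for Egr1, -0.14 ± 0.21 for Npas4 and -0.54 ± 0.35 for Nr4a1.

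Genes linked to Alzheimer's disease pathology in Down syndrome did not stand out. Of 37 tested genes of APP processing 0 were DEGs (median LFC 0.04). In the endosome and retromer list 1 of 45 was higher, Snx3 (LFC 0.27 ± 0.11), a sorting nexin of the retromer pathway, with a median of 0.04. The cholesterol list had 2 higher and 0 lower of 35 (median 0.09). These were Fdft1, squalene synthase (LFC 0.37 ± 0.15), and Apoe, the main lipoprotein of the brain, at 167, 77.8, 81.5, 113 and 120 CPM in ChN and 106, 133 and 204 CPM in ChP (LFC 0.38 ± 0.18), with overlapping groups. Across the 14 fits that left out 1 library, Fdft1 kept its call in 13 and Apoe in 5. Microglial and interferon response genes had 0 DEGs of 17 tested (median -0.01), and heat shock and chaperone genes 0 of 45 (0.04).

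Of 83 tested genes that are triplicated in Ts mice, 4 were DEGs, beside 3.26% of all genes tested. The lists of triplicated genes were chosen by the study on libraries of this series, so they are not independent evidence of a direction. Of 63 genes of the chromosome 16 segment 0 were higher and 3 were lower, with a median LFC of -0.03. The 3 were A630089N07Rik (-1.36), Setd4 (-0.75), a SET domain methyltransferase, and Cryzl1 (-0.34), a quinone oxidoreductase relative, and both Setd4 and Cryzl1 were below every ChN library in 8 of 9 ChP libraries. App itself, the amyloid precursor, had an LFC of 0.09 ± 0.08, the kinase gene Dyrk1a -0.10, the calcineurin regulator Rcan1 -0.15 and Sod1, superoxide dismutase, 0.07. Of 20 chromosome 17 genes 1 was higher, Snx9 (LFC 0.74), an endocytic sorting nexin, and 0 were lower (median -0.10). Averaged over the 63 genes, the mean of log2(CPM + 1) was 5.47 to 5.58 in Ts ChN libraries and 5.24 to 5.56 in Ts ChP libraries, above the 4.82 to 5.09 of all 2N (disomic) CA1 PN libraries but the ChN library of mouse 17-154, which was at 5.53.

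Of the gene lists, that of cytosolic ribosomal proteins held the most DEGs. Of 78 tested genes 16 were higher and 0 lower in ChP, while 1.99% of all genes tested were higher and 1.27% lower. The median LFC was 0.22 beside 0.01 over all genes tested, and 67 of 78 were above 0. Among the 16 were Rpl36, Rpl41, Rplp2, Rps25, Rpl13, Rpl12, Rpl27a, Rpl13a, Rpl29, Rplp1, Rpsa, Rpl4, Rpl23a, Rpl5 and Rpl37. Rplp2, a protein of the ribosomal stalk, was at 37.2, 54.0, 56.9, 58.1 and 56.4 CPM in ChN and 55.1, 70.0 and 73.8 CPM in ChP (LFC 0.36 ± 0.12). Averaged over the 78 genes, the ChN libraries were at 4.67, 5.07, 5.09, 4.82 and 4.99 log2 CPM and the ChP libraries at 4.95 to 5.42, so the groups overlapped, with mouse 16-357 lowest. Without that library 6 were higher, without ChN mouse 17-157 9 were and without the CA2-rich libraries 8 were, as were 8 (median 0.18) without all 5 libraries with raised CA2 markers, while 16 were without mouse 16-272 and 11 with library totals. With the effective length offset 6 were higher and 0 lower (median 0.21), and with the protein-coding percentage as covariate 4 were higher and 0 lower (median 0.11). Ribosomal protein genes have many processed pseudogenes, so their counts may share reads with copies.

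Nuclear-encoded subunits of the respiratory chain, like ribosomal proteins the products of mostly short transcripts, had 9 higher and 0 lower of 80 tested. Over all genes tested the shares were 1.99% higher and 1.27% lower. The list had a median LFC of 0.15 and 67 genes above 0. Complex I subunits Ndufb11 (0.45 ± 0.17), Ndufa12 (0.50 ± 0.19), Ndufa8 (0.35 ± 0.14) and Ndufs6 (0.45 ± 0.20), complex III subunits Uqcr11 (0.45 ± 0.18) and Uqcrb (0.41 ± 0.20), the complex IV subunit Cox5b (0.32 ± 0.14) and the ATP synthase subunits Atp5me (0.50 ± 0.19) and Atp5mf (0.35 ± 0.16) were the 9. The count moved in both directions between settings. With mean fragment length as covariate 19 were higher and 0 lower (median 0.23), whereas with the effective length offset 0 were DEGs (median 0.09) and with the protein-coding percentage as covariate 0 were higher and 2 lower. Without ChN mouse 16-357 13 were higher, without ChN mouse 17-157 3 were, and without all 5 libraries with raised CA2 markers 2 were higher and 2 lower (median 0.11). Mitochondrial ribosomal proteins had 3 higher and 1 lower of 78 (median 0.02), namely Mrpl42 (0.73), Mrps34 (0.36) and Mrpl49 (0.49) against Mrpl4 (-0.39). The 7 tested genes encoded by mitochondrial DNA had 0 DEGs (median 0.09), and 6 others were listed at 0 in the libraries.

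**Figure D3:**
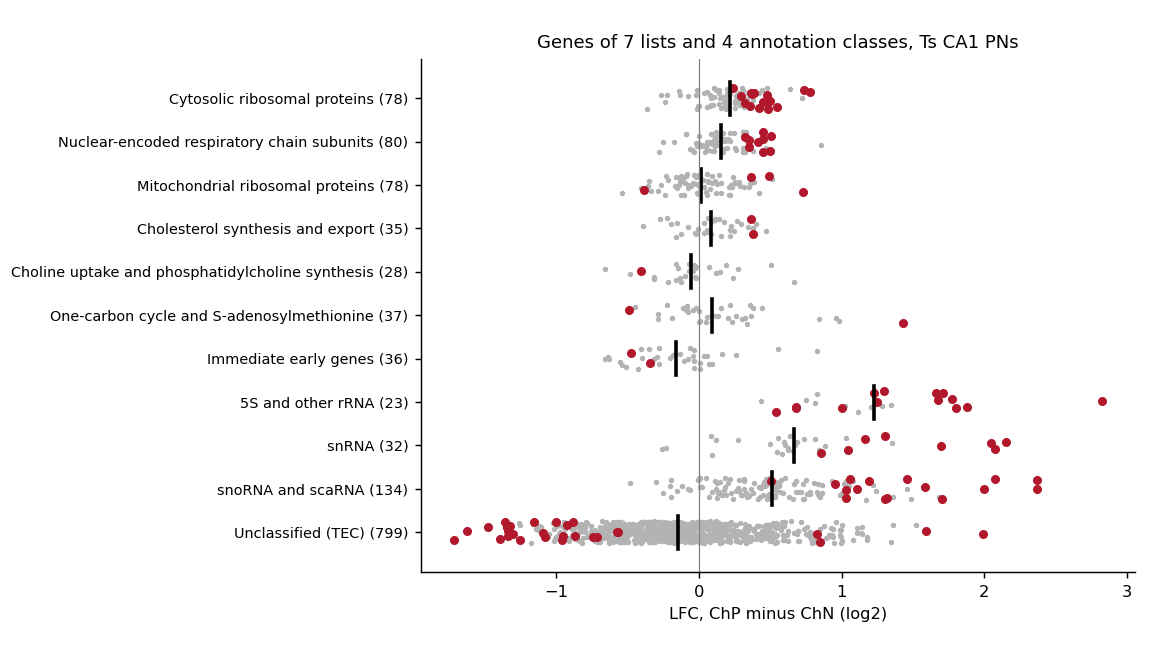
LFC of ChP over ChN (horizontal axis, log2) for each tested gene of 7 gene lists and 4 annotation classes, 1 point per gene, red where the unadjusted p was under 0.05, with the median as a black bar. Medians are 0.22 for cytosolic ribosomal proteins, 0.15 for respiratory chain subunits and 1.23 for rRNA genes, and near 0 for the choline and one-carbon lists.

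Annotation classes were tallied after their values had been seen, and short non-coding RNAs stood out in that tally. Over all genes tested 1.99% were higher and 1.27% lower in ChP. Of 23 genes annotated as rRNA, nearly all 5S copies, 14 were higher and 0 lower (60.9% higher, median LFC 1.23). Of 32 small nuclear RNAs (snRNAs), the RNA parts of the splicing machinery, 8 were higher and 0 lower (25%, median 0.66). Of 134 small nucleolar and Cajal body RNAs (snoRNAs), which guide or assist the modification and processing of rRNA and snRNA, 16 were higher and 0 lower (11.9%, median 0.51). Genes of the unclassified TEC biotype went the other way, with 4 higher and 25 lower of 799 (median -0.15), and long non-coding RNAs were near 0, with 13 higher and 17 lower of 818 (median -0.04).

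The sequences of 4 of these RNAs, chosen as members of the snRNA and snoRNA classes that were higher in ChP, are given in the 5′ to 3′ direction as in the GENCODE M39 transcripts of GRCm39. In the 2 snRNAs, capitals mark AATTTTT, which as the RNA AAUUUUU is a form of the site bound by Sm proteins and is present on the given strand in 8 of the 32 tested snRNA genes (25%).
Rnu4atac (1:118386871-118386995, minus strand), of the minor spliceosome: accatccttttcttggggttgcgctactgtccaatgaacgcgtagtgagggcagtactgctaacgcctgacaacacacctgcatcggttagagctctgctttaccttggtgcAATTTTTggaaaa
Rnu11 (4:131997391-131997524, minus strand), of the minor spliceosome: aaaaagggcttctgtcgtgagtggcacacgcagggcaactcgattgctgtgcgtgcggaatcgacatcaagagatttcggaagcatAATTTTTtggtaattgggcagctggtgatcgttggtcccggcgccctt
In Snora68 capitals mark the ACA 3 bases before the end that defines H/ACA snoRNAs, a feature of 59 of the 134 tested genes (44.0%), and in Snord118 the first TGATGA and the last CTGA, the letters of boxes C and D, both of which 51 of 134 hold (38.1%).
Snora68 (8:71348403-71348533, minus strand): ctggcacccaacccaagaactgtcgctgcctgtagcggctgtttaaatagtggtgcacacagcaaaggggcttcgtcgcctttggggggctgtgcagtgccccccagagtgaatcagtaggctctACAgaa
Snord118 (11:68964253-68964387, plus strand), the U8 RNA needed for maturation of the large rRNAs: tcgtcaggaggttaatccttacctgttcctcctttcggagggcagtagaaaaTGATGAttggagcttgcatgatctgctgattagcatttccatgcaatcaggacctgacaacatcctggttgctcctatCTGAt

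Among these RNAs n-R5s109 had the smallest p of all genes tested, with levels of 0 to 7.64 CPM (median 1.71) in ChN and 5.98 to 16.0 CPM (median 9.04) in ChP (LFC 1.80 ± 0.43, unadjusted p = 0.000351). The more abundant copies n-R5s194 and n-R5s185 each had an LFC of 0.68, and n-R5s115 of 1.003. Of the 5S copies tested, 16 had a length of 119 bases. These were 89.9% to 99.2% identical to the most common base at each position, with a median of 95.4%, so reads of the abundant 5S rRNA could be assigned to any of them and the copies are not independent measurements. Rn18s-rs5, a gene of 18S-related sequence, had an LFC of 0.54 ± 0.21.

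Rnu4atac was at 5.01 to 10.7 CPM in ChN (median 7.70) and 5.28 to 31.1 CPM in ChP (median 18.3), with 7 of 9 ChP libraries above every ChN library (LFC 1.05 ± 0.33). Rnu11 was at 12.4 to 57.0 CPM in ChN (median 42.4) and 29.9 to 154 CPM in ChP (median 85.9), again with 7 of 9 above (LFC 1.16 ± 0.41). Snora68 was at 2.33, 9.50, 8.49, 3.01 and 5.99 CPM in ChN and 7.47, 14.8 and 20.9 CPM at lowest, median and highest in ChP (LFC 1.19 ± 0.33). Snord118 was at 0 to 2.56 CPM in ChN (median 0.594) and 0 to 11.4 CPM in ChP (median 2.93), an LFC of 2.37 ± 0.80.

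These RNAs are mostly shorter than the mean fragment sequenced, and fragment length differed between libraries. The rRNA, snRNA, snoRNA and miscellaneous RNA classes together held 2.25, 4.52, 4.82, 3.33 and 4.85% of counts in the ChN libraries and 3.14% to 6.59% in ChP. The libraries with the longest fragments, 16-357 (266.8 bases) and 15-199 (233.3 bases), had the lowest share of their group at 2.25% and 3.14%. Both were also CA2-rich, while the other CA2-rich library, 16-272 (188.4 bases), had the highest share at 6.59%. The part of fragment length in these shares was not tested. Without mouse 16-357, 10 rRNA genes, 6 snRNAs and 7 snoRNAs were higher, without the 3 CA2-rich libraries 8, 5 and 18 were, and without all 5 libraries with raised CA2 markers 3, 5 and 15 were (medians 0.79, 0.64 and 0.43). With mean fragment length as a covariate, a fit that called 5.44% of all genes higher and 3.58% lower, 9 of 23 rRNA genes were higher, 7 of 32 snRNAs were higher, and 8 snoRNAs were higher and 1 lower. With the effective length offset 3 of 20, 5 of 31 and 2 of 93 were higher, with medians of 0.60, 0.25 and 0.08, and 47 genes dropped out because their effective length fell below 1 base in a library. Rnu11 (LFC 0.68, unadjusted p = 0.00811) and n-R5s109 (1.33, unadjusted p = 0.00929) stayed under 0.05, Snord118 did too (1.87, unadjusted p = 0.0338), and Snora68 (0.80, unadjusted p = 0.0542) and Rnu4atac (0.46, unadjusted p = 0.148) did not.

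**Figure D4:**
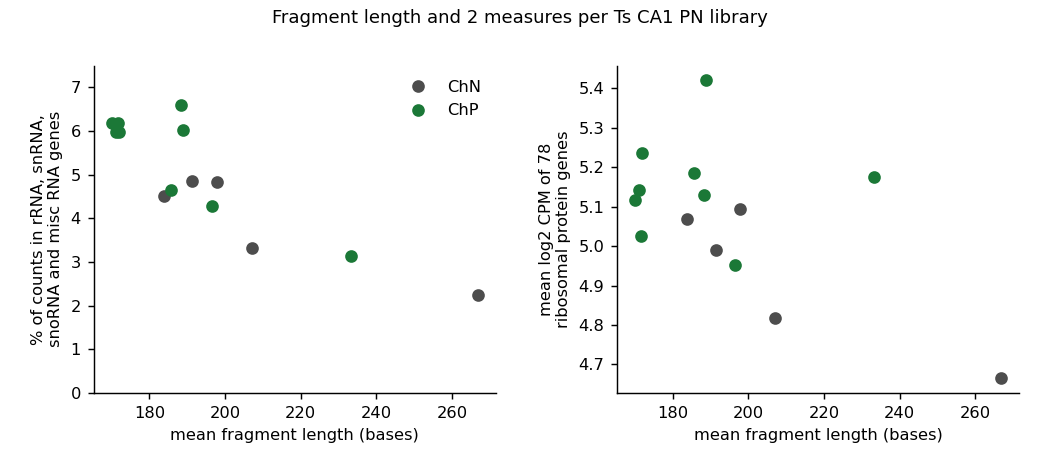
Mean fragment length in bases (horizontal axis) against the percentage of counts in rRNA, snRNA, snoRNA and miscellaneous RNA genes (left) and against the mean log2 CPM of 78 cytosolic ribosomal protein genes (right), 1 point per Ts CA1 PN library, coloured by diet. The ChN library with 266.8 bases has the lowest value in both panels, 2.25% and 4.67 log2 CPM.

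Whether the diet difference depended on trisomy was asked in 1 fit of all 27 CA1 PN libraries, with 7 ChP and 6 ChN libraries of 2N mice beside the 14 of Ts mice. The difference between the diet effects had an unadjusted p under 0.05 at 523 of 16225 genes (3.22%) and an adjusted p under 0.05 at 0 (0.0%) with edgeR's quasi-likelihood test, against 416 and 0 with DESeq2 and 582 and 0 with limma-voom. Within that fit the diets differed at 530 genes in 2N mice (3.27%) and at 495 in Ts mice (3.05%). One of the 2N libraries, of mouse 17-21, was low in CA1 markers at a mean log2(CPM + 1) of 2.48, and that of mouse 17-154 had triplicated genes at the Ts level as given above. Without these 2 libraries, an alternative chosen after seeing the data, 583 of 15958 genes had an unadjusted p under 0.05 for the difference.

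The 24 leading genes were chosen for small p-values in the Ts libraries that also enter this difference, so their count is a description and is not read against the 3.22% of all genes. Of the 24, 11 differed between Ts and 2N at an unadjusted p under 0.05, 9 did without these 2 libraries, and 7 did in both. Fam107a had an LFC of -0.27 in 2N mice against 0.67 in Ts mice (difference 0.93, unadjusted p = 0.00181, and 0.78, unadjusted p = 0.0068, without these 2 libraries). Zng1 had a difference of 1.22 (unadjusted p = 0.00172), and 1.21 without them. Fbxo7 had a difference of 0.95 (unadjusted p = 0.018), which was at unadjusted p = 0.126 without them. Stx5a was the gene of the 24 that also had an unadjusted p under 0.05 in 2N CA1 PNs, with the same LFC of -0.41 in both genotypes.

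Of the 28 choline genes 0 had an unadjusted p under 0.05 for the difference from 2N mice, and of the 37 one-carbon genes 2 had one. The Pcyt2 LFC was -0.01 in 2N mice, and the difference of -0.41 had an unadjusted p of 0.0524; without these 2 libraries they were -0.13 and -0.28 (unadjusted p = 0.201). Mtr was at -0.10 in 2N mice (difference -0.40, unadjusted p = 0.17), and at -0.28 without these 2 libraries (difference -0.22, unadjusted p = 0.47). Of the 24 DNA methylation genes 1 had one, Gadd45a (difference 2.10, unadjusted p = 0.0424). Of the 51 histone methylation genes 3 had one, among them Suz12 (-0.57, unadjusted p = 0.049). The share over all genes tested was 3.22%. Gadd45a and Suz12 are named for their calls in the Ts libraries that also enter the difference. Klf6 had opposite signs, -0.34 in Ts and 0.43 in 2N mice (difference -0.79, unadjusted p = 0.00282). App had an LFC of -0.21 in 2N mice, and its difference of 0.28 had unadjusted p = 0.0451, which was 0.14 without these 2 libraries.

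The groups with many DEGs in Ts mice had few in 2N mice. Cytosolic ribosomal proteins had 1 higher and 0 lower of 78 there, with a median LFC of 0.02, and the difference passed an unadjusted p of 0.05 at 3 genes. Without the libraries of mice 17-21 and 17-154 these became 0 higher, 2 lower, a median of -0.09 and 13 genes. Respiratory chain subunits had 2 higher and 0 lower in 2N mice, with a median of 0.04, and without the 2 libraries also 2 and 0, with a median of 0.11 beside the 0.15 of Ts mice. In 2N mice the rRNA genes had 0 DEGs (median LFC -0.11), the snRNAs 1 higher and 1 lower (-0.26) and the snoRNAs 0 higher and 3 lower (0.02). Without the 2 libraries the medians in 2N mice were -0.34, -0.58 and -0.29, with 0, 3 and 8 genes lower and 0 higher. Of these rRNA, snRNA and snoRNA genes 6, 4 and 14 had an unadjusted p under 0.05 for the difference, and 7, 7 and 19 without the 2 libraries. All groups in this paragraph were singled out by their calls in the Ts libraries that also enter the difference. Their counts are a description, are not read against the 3.22% of all genes, and were not adjusted for fragment length. Snora68 had the smallest p of all 16225 genes: it was at 2.32 to 9.55 CPM in Ts ChN, 7.40 to 20.7 in Ts ChP, 8.32 to 29.3 in 2N ChN and 3.59 to 16.8 in 2N ChP, a difference of 2.21 ± 0.50 with an unadjusted p of 8.12e-05 and a Benjamini-Hochberg adjusted p of 0.9999 from edgeR's quasi-likelihood test. The groups overlapped in each genotype.

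**Figure D5:**
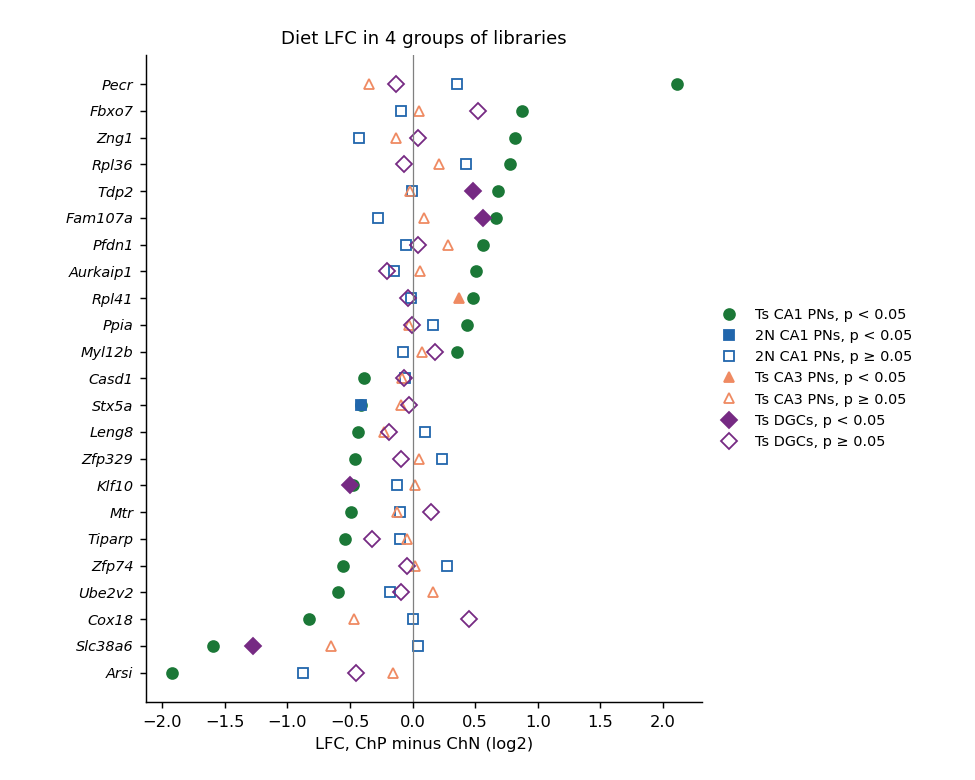
Diet LFC, ChP over ChN (horizontal axis, log2), of 23 of the 24 leading protein-coding genes in CA1 PNs of Ts mice, CA1 PNs of 2N mice, CA3 PNs of Ts mice and DGCs of Ts mice, filled where the unadjusted p was under 0.05. In addition to Ts CA1 PNs, where all 23 are filled, 1 is filled in 2N CA1 PNs, 1 in Ts CA3 PNs and 4 in Ts DGCs.

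CA3 PNs and DGCs of Ts mice allowed the diet effect to be compared between neuron types, mostly within the same animals. Each comparison used 1 fit of all Ts libraries, without the CA3 library of mouse 15-145, whose label disagrees with that of its other libraries. That fit treated libraries of the same mouse as independent. The CA1 PN effect differed from the CA3 PN effect at 784 of 18544 genes at an unadjusted p under 0.05 (4.23%) and from the DGC effect at 831 (4.48%), and with edgeR's quasi-likelihood test 0 genes (0.0%) passed adjustment in either comparison. DESeq2 passed 1 and 2 genes. With the mouse as a replicate block the counts at an unadjusted p under 0.05 were 590 and 698, with 0 passing adjustment. Of the 24 leading genes 1 had an unadjusted p under 0.05 in Ts CA3 PNs, Rpl41 (LFC 0.37), where 4.36% of all genes had one. In Ts DGCs, where 3.7% of all genes had one, there were 4, of which Fam107a (0.56), Slc38a6 (-1.27), Klf10 (-0.50) and Tdp2 (0.48) all had the sign seen in CA1 PNs. The CA3 PN and DGC libraries came mostly from the mice whose CA1 PN libraries chose the 24 genes. Shared calls and signs are therefore not independent evidence. Mtr (-0.13 and 0.14) and Pcyt2 (-0.03 and -0.07) were near 0 in CA3 PNs and DGCs.

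The ribosomal protein list had 6 higher and 0 lower of 78 in Ts CA3 PNs (median LFC 0.16) and 0 higher and 1 lower in Ts DGCs (median 0.00). Of the 23 rRNA, 32 snRNA and 134 snoRNA genes, 6, 3 and 8 were higher and 0 lower in Ts CA3 PNs. In Ts DGCs 0 were higher and 2, 2 and 4 were lower. Over all genes and both directions the share called was 4.36% in Ts CA3 PNs and 3.7% in Ts DGCs. The smallest p of the comparison with DGCs belonged to Tmem35b, a transmembrane protein gene, whose difference had a Benjamini-Hochberg adjusted p of 0.0578 with edgeR's quasi-likelihood test and of 0.371 with the mouse as a block.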

How the data were processed

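Members and gene lists were chosen with earlier results of these data known. The authors dissected neurons by laser capture, made SMARTer stranded total RNA libraries, trimmed with Trimmomatic 0.39, aligned with STAR to GRCm39 and quantified genes with RSEM; the submitters' processing notes also name mm10. They deposited expected counts, and beside them TPM and, as other values, effective lengths in bases; TPM was not tested. Expected counts were rounded, and genes over 0.1 CPM in at least 10 libraries were fitted with edgeR 4.0.16 (R 4.3.3): TMM factors, robust quasi-likelihood test, diet as the term. CPM in the text is TMM-normalised. The study's covariates were not used here. Fragment length was read from effective lengths of genes over 3000 bases. DESeq2 1.42.0, limma 3.58.1 and sva 3.50.0 gave alternatives. Scripts were tested on simulated data. Symbols came from GENCODE M39 (56310 of 57010 identifiers).

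The genes named in each direction were the 12 protein-coding DEGs with the smallest p, then up to 4 DEGs per list (2 genes by p where a list had none), 10 genes of prior interest and the 3 with the smallest p for each difference. Further genes were named after their values were seen. A few genes and sequences are not reported here. In the comparison of neuron types the libraries pair by mouse: residuals of 39 same-mouse pairs had a median correlation of 0.105 over 7649 genes, against -0.00571 for different mice.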

Additional observations from a re-analysis of the deposited data

Results flagged for a closer look

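Of 78 sets of values checked, 48 of them for the 24 leading genes, 11 held a library far from the rest of its group. Chance gives about 5% of independent sets. These sets share the same libraries, and the 24 genes were chosen for small p-values, so the count is not read against that share. The ChN library of mouse 16-357 accounted for 6: 8.03% of counts from mitochondrial genes, a mean fragment length of 266.8 bases, and marker means of 7.58 log2 CPM for CA2, 6.16 for CA1, 5.49 for CA3 and 4.46 for oligodendrocytes. The ChP library of mouse 15-199 had 12.2% of counts from mitochondrial genes and fragments of 233.3 bases. The ChP library labelled CA1 PNs of mouse 16-272 had CA1 markers at 2.56 log2 CPM and dentate granule cell markers at 2.53. Pecr was at 3.01 CPM in the ChN library of mouse 17-157, the highest of its group.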

How the results depend on the processing

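With 0 adjusted calls in the Ts CA1 PN comparison under every alternative run, the counts below are at an unadjusted p under 0.05. The 457 DEGs became 1265 with fragment length as covariate (763 higher, 502 lower), 1166 with no filter (596 and 570) and 261 with the protein-coding percentage (123 higher). Library totals gave 175 higher and 285 lower, and the lower count was 110 with filterByExpr and 273 with limma-voom. Leaving out 1 library gave 345 to 784 DEGs, 204 to 457 higher and 134 to 327 lower, each highest without ChN mouse 16-357. With the effective length offset there were 553. Without the 5 libraries with raised CA2 markers there were 549 (272 lower). The cause of these changes was not tested. The difference between Ts and 2N mice gave 294 genes with filterByExpr, 994 with no filter and 452 to 639 leaving out 1 library. CA1 PNs against CA3 PNs gave 511 with DESeq2 (1 adjusted), 371 with filterByExpr and 671 to 1280 leaving out 1 mouse (0 to 1 adjusted, the 1 without mouse 14-90, the 1280 without mouse 16-357); CA1 PNs against DGCs gave 437 with filterByExpr, 712 to 1077 leaving out 1 mouse, 2 adjusted with DESeq2 and 1 with no filter. The mouse as a replicate block (590 and 698 genes) changed no call of adjusted p. No paired analysis was possible for the main comparison because the diets share no mice. Of the 457 DEGs, 110 kept an unadjusted p under 0.05 in all 14 fits that left out 1 library, and 22 kept it with their sign in every one of the other 15 alternatives that tested them; 8 changed sign in at least 1 of these and 0 leaving out 1 library. The 54 named DEGs did not change sign and kept it in 663 of the alternative values and lost it in 189; leaving out libraries, 659 kept it and 97 lost it. At 0.1 CPM a library of this depth holds 0.065 to 0.192 counts, so low genes were near the limit of detection.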
